A study of Mus musculus with 4 samples.

Results

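The Smads, the Ski corepressors and the Id factors are 10 genes of the TGF-beta and BMP pathway, taken by name from a table of 41324 genes: Smad2, Smad3, Smad4, Smad6, Smad7, Ski, Skil, Id1, Id2 and Id3. Their mRNA was followed in RAW264.7 cells, a mouse macrophage line, before and after transcription was blocked with actinomycin D, which intercalates into DNA and halts RNA polymerases. The 4 libraries came from untreated cells and from cells given 10 µg/ml of the drug for 2, 4 and 6 h, with 1 library at each time. The course served to measure how fast mRNAs are lost. All 4 libraries were made from the cytoplasmic fraction of cells of the same line. Whether a separate culture was used at each time is left unsaid in the labels.

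Ligands of the TGF-beta family bind paired receptor kinases at the cell surface. TGF-beta and activin receptors phosphorylate Smad2 and Smad3, BMP receptors phosphorylate Smad1, Smad5 and Smad9, and both groups enter the nucleus with the common partner Smad4. Smad6 and Smad7 are inhibitory Smads that the pathway induces against itself, and Ski and Skil (the SnoN protein) bind Smads at DNA and bring in corepressors. Id1, Id2 and Id3 are targets of BMP signalling whose proteins have a helix-loop-helix but no DNA-binding region, so that they hold E proteins such as Tcf3 away from DNA. In macrophages TGF-beta is known as a brake on inflammatory activation.

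The libraries held 35669434, 38260540, 70289647 and 12762100 gene counts at 0, 2, 4 and 6 h, and counting error was therefore widest at 6 h. A single gene took 23.15% of the untreated counts, and for that reason levels were compared after TMM scaling, which puts the typical gene near a flat course. A level under 100% of untreated thus describes an mRNA that lost more than the typical gene. All 9 macrophage markers examined were detected, with a summed level between 3012 and 4856 CPM (a gene's counts over the library's total, rescaled) over the 4 libraries, and the 4 epithelial markers had no count in any. Summed markers of T cells, B cells, fibroblasts, endothelium and erythroid cells were at most 0.627 CPM in any library. With 1 library at each time, p-values measured only the spread of the 4 libraries around a fitted line or curve. That spread was moderated across genes, because the line left 2 residual degrees of freedom and the curve 1. The p-values thus rest in part on the spread of other genes. Intervals covered counting error only. In bulk RNA, fewer cells and less RNA per cell cannot be told apart.

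Sequence motifs linked to mRNA turnover were sought in the longest annotated 3' UTR of each gene (GENCODE annotation of the mm10 build, transcript strand). The AU-rich pentamer ATTTA occurred in 8 of the 10 3' UTRs, 14 times in Skil, 17 times in Smad2 and 10 times in Ski, and neither Id1 nor Id3 held it. Of 3' UTRs within 25% of its length, 8.47% held as many pentamers as Skil, 17.8% as many as Smad2, 15.9% as many as Ski, 53.8% as many as Smad4 and 72.1% as many as Smad3. The shares for Smad6, Smad7 and Id2 were 17.7%, 31.7% and 19.3%. Of 9609 tested genes with a 3' UTR, 70.4% held the pentamer. The longer AU-rich form TTATTTATT, which contains the pentamer, was in none of the 10 and in 8.26% of all. The motif TGTANATA, bound by Pumilio proteins, which repress and destabilise mRNAs, was found 4 times in Smad2, 3 times in Skil and 1 time each in Smad7, Ski and Id2, against 26.5% of all 3' UTRs that held it at all. Among 3' UTRs of like length, 7.32% held as many as Skil, 7.80% as many as Smad2, 17.0% as many as Id2, 28.7% as many as Smad7 and 46.4% as many as Ski.

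The matches in Ski, Skil and Id2 are shown, and capitals mark the motif. Those of Smad2, which held the most (4), and of Smad7 are not shown. Whether the number of matches goes with the course of a member was not tested. The Ski match lies at chr4:155154684-155154711 on the minus strand. The Skil matches lie at chr3:31120524-31120551, chr3:31121193-31121220 and chr3:31122509-31122536 on the plus strand. The Id2 match lies at chr12:25094112-25094139 on the minus strand.
Ski: atgactcacaTGTAAATActtttttcca
Skil upstream match: tttaatcaacTGTAAATAgcatatctac
Skil middle match: aaacctgattTGTACATAgtgaagttta
Skil last match: tttcatgcctTGTACATAacttgtatag
Id2: ctgaatgctgTGTATATAtttatatata

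With TMM scaling all 10 members stood below their untreated level at 2, 4 and 6 h, as did 48.9%, 48.8% and 49.6% of all tested genes. With total counts Smad2 stood at 108% of untreated at 2 h, Smad4 at 97.8% and Ski at 97.7%. On a straight line over the 6 h, 6 of the 10 fell (Smad2, Smad3, Smad4, Smad6, Ski and Id3) and 0 rose at an adjusted p under 0.05 in edgeR's quasi-likelihood test, where 16.8% of 10837 tested genes fell and 8.03% rose. At an unadjusted p under 0.05, 5083 of all tested genes passed. The median slope was −0.22 log2 per h over the 10 members and 0.0014 over all tested genes. The test of a bend, the quadratic term in time, found 8 of the 10 bent upward (all but Smad2 and Smad4) and 0 downward, where 18.0% of tested genes bent upward and 10.6% downward. In a course that starts downward, an upward bend means by construction that the loss per h shrank or turned to a gain. Id1 and Smad7 were higher at 6 h than at 2 h, by 0.70 and 0.85 log2. The step per h was steeper downward from 0 to 2 h than from 2 to 6 h in 9 of the 10, all but Smad4. By 2 h 6 of the 10 were at or below 50% of untreated, against 9.08% of all tested genes, and by 6 h 7 of the 10, against 16.2%. With total counts the 6 at 2 h numbered 1, Id1 (36.2%), against 4.74% of all genes, and 6 of the 10 were at or below 50% at 6 h, against 13.1%. All 10 members passed the abundance filter, a mean CPM of at least 1.

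The number of falling members was 7 with DESeq2 size factors, 7 with total counts, 6 with ribosomal protein scaling and 8 with the authors' divisors, where 17.0%, 12.2%, 23.3% and 45.8% of all tested genes fell. It was 1, Smad4, without the 4 h library, where 2.15% of all genes fell, and 5 without the untreated library, where 15.2% fell. In that fit the slopes of 7 members moved by over 1.5 times or turned, all but Smad2, Smad4 and Ski. The falling members with total counts were a different set from those with TMM. Smad2 and Ski missed the test there (edgeR adjusted p = 0.220 and 0.268). Skil, Id1 and Id2 passed it (edgeR adjusted p = 0.00388, 0.0239 and 0.0210). The number of members bent upward was 3 (Smad3, Smad7 and Id1) with total counts, where 6.16% of all genes bent upward. It was 8 with DESeq2 size factors, ribosomal protein scaling and the authors' divisors, where 17.3%, 31.5% and 28.9% of all genes did.

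**Figure D1:**
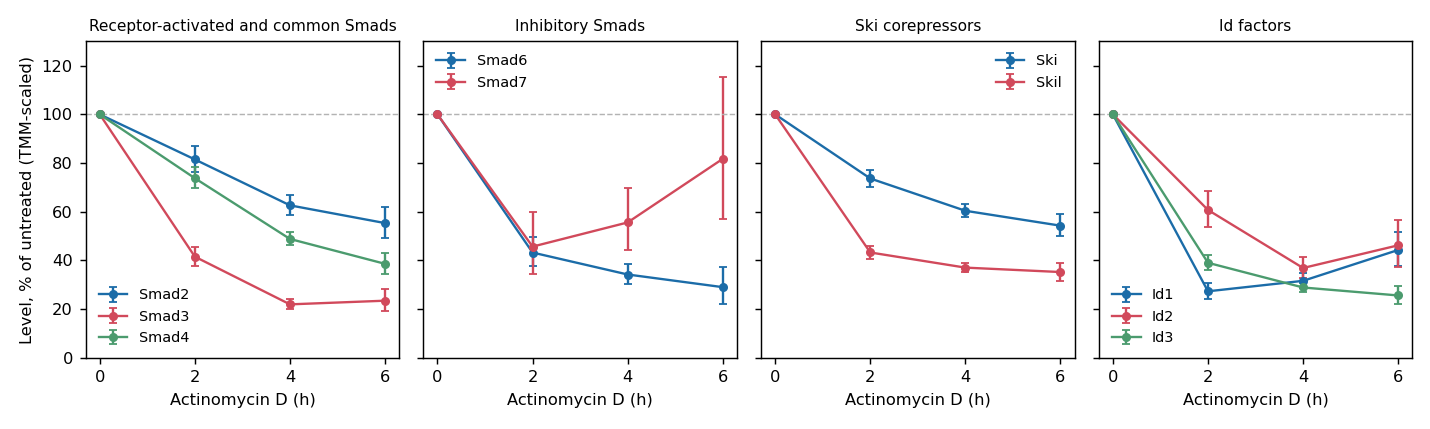
Level of each gene as a percent of the untreated library (vertical axis, TMM-scaled counts) against hours of actinomycin D (horizontal axis), 1 library at each time, with exact binomial 95% counting intervals. Smad2, Smad4 and Ski decline at every step beyond counting error. Smad6, Skil and Id3 are also lower at each later time, their last step lying within counting error. Id1 and Smad7 are lowest at 2 h and stand at 44.3% and 81.8% at 6 h.

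Smad2 and Smad4 kept the straightest courses. Smad2, which carries TGF-beta and activin signals, had 1637, 1897, 2557 and 364 counts at 0, 2, 4 and 6 h, or 81.5%, 62.6% and 55.3% of untreated at 2, 4 and 6 h after scaling (counting interval at 6 h 49.3 to 62.0%). It fell (slope −0.15 ± 0.018 log2 per h, the error being the SE; edgeR adjusted p = 0.0188), and its bend missed the test (adjusted p = 0.555). Each later level was below the one before it.

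Smad4, the common partner, had 2244, 2354, 2732 and 348 counts, or 73.8%, 48.8% and 38.6% of untreated. It had the smallest trend p of the 10 (−0.24 ± 0.019 log2 per h, edgeR adjusted p = 0.0148; bend adjusted p = 0.696). It was the member that still passed the line test without the 4 h library, and it passed under all 5 scalings. With total counts Smad2 missed the test (adjusted p = 0.220).

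Smad3, the paralog of Smad2, went lower and sooner. It had 1273, 752, 697 and 120 counts, or 41.5%, 22.0% and 23.5% of untreated. Its slope was the steepest of the 10 over all 4 libraries (−0.37 ± 0.073 log2 per h, edgeR adjusted p = 0.0357), and 3.34% of tested genes had a steeper one. Over 2 to 6 h alone it was −0.238 beside −0.240 for Smad4, and without the 4 h library it missed the test (adjusted p = 0.0681). The 4 and 6 h levels did not differ beyond counting error, the 6 h level being 107% of the 4 h level (87.3 to 130%), and the course bent upward (adjusted p = 0.00194). Smad3 spans chr9:63646767-63757994 (minus strand).

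The ratio of Smad3 to Smad2 counts needs no scaling of libraries. It was 0.778 in the untreated library and 0.396, 0.273 and 0.330 at 2, 4 and 6 h. At 6 h the ratio was 42.4% of the untreated ratio (exact interval 33.8 to 53.0%), a difference within libraries that no scaling alters.

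The inhibitory Smads followed different courses after 2 h. Smad6, which acts mostly against BMP receptors, had 566, 348, 483 and 66 counts, or 43.2%, 34.2% and 29.0% of untreated. It fell (−0.30 ± 0.060 log2 per h, edgeR adjusted p = 0.0365) with an upward bend (adjusted p = 0.0209), and it missed the line test without the untreated library (slope −0.15, adjusted p = 0.0683) or the 4 h library (0.0990). Smad6 spans chr9:63953076-64022059 (minus strand).

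Smad7, which inhibits both branches of the pathway, was the least abundant member, with 137, 89, 190 and 45 counts. Its scaled level was 45.7%, 55.6% and 81.8% of untreated, with a counting interval of 57.0 to 115% at 6 h that included 100%. The 6 h level was 179% of the 2 h level (122 to 259%). The slope missed the test (−0.052 ± 0.095 log2 per h, edgeR adjusted p = 0.688), and the bend passed it (adjusted p = 0.0134). Without the untreated library the slope was 0.20 log2 per h (adjusted p = 0.0658).

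Within single libraries, the ratio of Smad7 to Smad4 counts was 0.0611 before treatment and 0.0378, 0.0696 and 0.129 at 2, 4 and 6 h. It was 61.9% of the untreated ratio at 2 h (46.6 to 82.0%) and 212% at 6 h (145 to 305%). The ratio of Smad6 to Smad4 counts was 58.6%, 70.1% and 75.2% of the untreated ratio at 2, 4 and 6 h. Both inhibitory Smads thus stood lower relative to Smad4 at 2 h, and at 6 h Smad7 alone stood above its untreated ratio to Smad4.

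**Figure D2:**
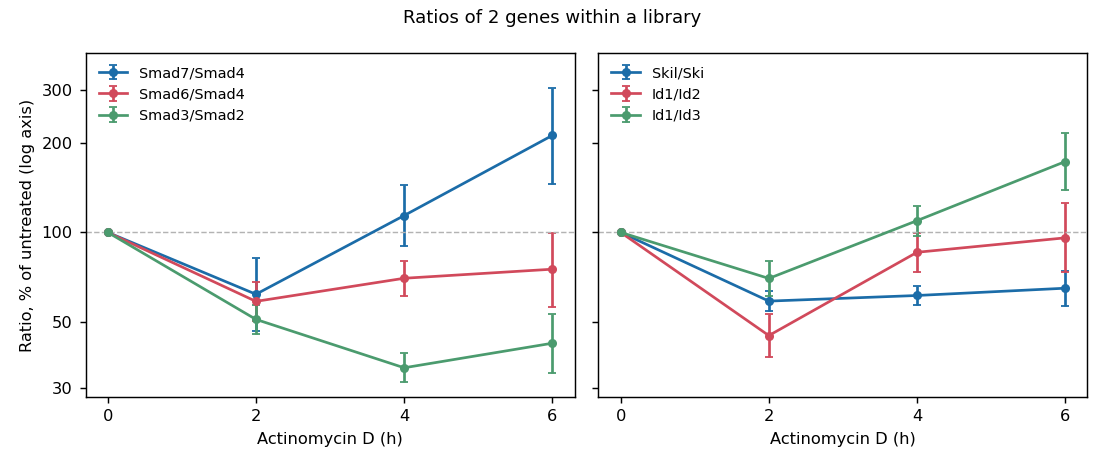
Ratio of the counts of 2 genes in the same library as a percent of the untreated ratio (log axis) against hours of actinomycin D, with exact 95% counting intervals; no library scaling enters. Smad7/Smad4 stands at 212% and Id1/Id3 at 173% at 6 h, while Smad3/Smad2 and Skil/Ski stay under the untreated ratio, at 42.4% and 64.9%.

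Ski and Skil, paralogs that hold Smad complexes in a repressed state, parted within 2 h. Ski had 3191, 3343, 4807 and 696 counts, or 73.7%, 60.4% and 54.3% of untreated. It fell (−0.15 ± 0.020 log2 per h, edgeR adjusted p = 0.0208) and its bend was the weakest of those that passed (0.018 log2 per h squared, adjusted p = 0.0348). With total counts its slope missed the test (adjusted p = 0.268) and its bend was −0.019.

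Skil had 2854, 1756, 2637 and 404 counts, or 43.3%, 37.1% and 35.2% of untreated. Most of its loss lay before 2 h: the 6 h level was 81.4% of the 2 h level (72.9 to 90.8%). The slope of −0.25 ± 0.061 log2 per h lay at the threshold (edgeR adjusted p = 0.0505) and passed in 9 of the 12 alternatives, which gave adjusted p between 0.00129 and 0.114, the highest without the 4 h library. Over 2 to 6 h alone the slope was −0.077. The bend passed (adjusted p = 0.00120).

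The ratio of Skil to Ski counts was 0.894 in the untreated library and 0.525, 0.549 and 0.581 at 2, 4 and 6 h. At 6 h it was 64.9% of the untreated ratio (56.7 to 74.2%). The 3 ratios after treatment had overlapping intervals, so the pair parted before 2 h and no later change of the ratio was detectable at this depth.

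The Id factors followed courses of unlike shape. Id3 was the most abundant member per length in untreated cells, and Id1 the next. Id3 had 1973, 1095, 1421 and 203 counts, or 39.0%, 28.9% and 25.6% of untreated. It fell (−0.33 ± 0.064 log2 per h, edgeR adjusted p = 0.0352) and bent upward (adjusted p = 0.00102). Its slope was −0.16 without the untreated library, and it missed the line test without the 4 h library (adjusted p = 0.0819). Id3 spans chr4:136143497-136145755 (plus strand).

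Id1 had 1045, 406, 824 and 186 counts, or 27.3%, 31.6% and 44.3% of untreated. It had the lowest 2 h level of the 10, and each later level was higher than the one before it. The 6 h level was 162% of the 2 h level (136 to 193%). The slope missed the test (−0.19 ± 0.12 log2 per h, edgeR adjusted p = 0.25), while the bend was the largest of the 10 (0.15 log2 per h squared, adjusted p = 0.000994), with 1.34% of tested genes above it. With total counts the slope passed the test (−0.16 log2 per h, edgeR adjusted p = 0.0239). Without the untreated library Id1 was the member that rose (0.17 ± 0.048 log2 per h, edgeR adjusted p = 0.00653). Id1 spans chr2:152736251-152737410 (plus strand).

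Id2 had 587, 507, 540 and 109 counts, or 60.7%, 36.9% and 46.2% of untreated. Its slope of −0.21 ± 0.063 log2 per h missed the test (edgeR adjusted p = 0.0709) and was −0.13 without the untreated library. The slope met the threshold on the 0 to 4 h libraries (edgeR adjusted p = 0.0157) and with the authors' divisors (0.0457). It also met it with total counts (0.0210) and with no filter (0.0440). DESeq2's Wald test likewise passed Id2 (adjusted p = 0.0373). Its bend passed (adjusted p = 0.0247). The 6 h level was 125.3% of the 4 h level (101 to 154%).

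The ratio of Id1 to Id3 counts was 0.530 before treatment and 0.371, 0.580 and 0.916 at 2, 4 and 6 h, so that it was 173% of the untreated ratio at 6 h (139 to 215%). The ratio of Id1 to Id2 counts was 45.0% of its untreated value at 2 h (38.0 to 53.2%) and 95.9% at 6 h (73.6 to 125.2%). The ratio of Id3 to Id2 was 55.4% at 6 h (42.9 to 71.9%). Id1 was therefore the lowest of the 3 relative to its own start at 2 h and no longer so at 6 h.

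**Figure D3:**
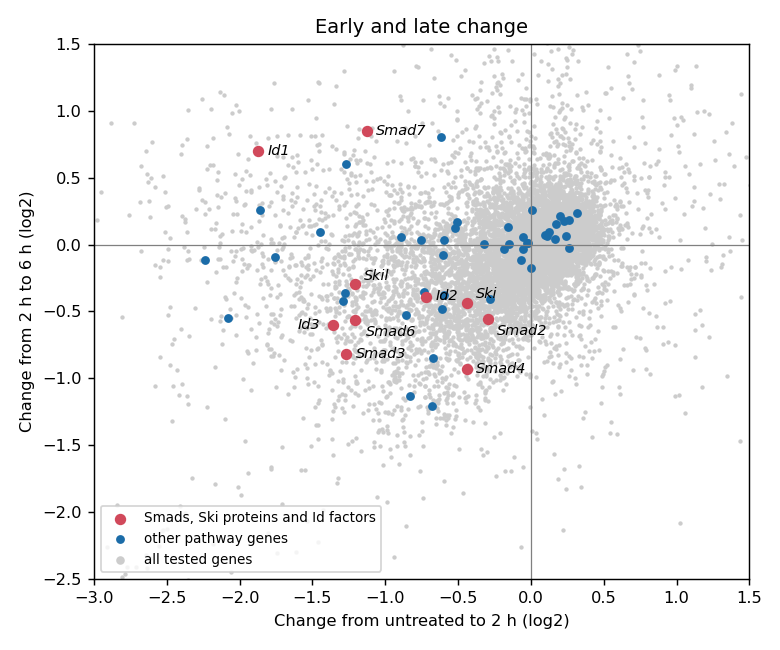
Change from untreated to 2 h (horizontal axis, log2) against change from 2 to 6 h (vertical axis, log2) for the 10 members (red), other tested pathway genes (blue) and all tested genes (grey); 139 genes lie outside the plotted range. Id1 and Smad7 are the members above 0 on the vertical axis, at 0.70 and 0.85, and the other 8 lie below 0 on both axes.

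Levels per kb of exon placed the members in an order that the course rearranged. On the scale of TMM-scaled CPM per kb, the untreated levels were 30.9 for Id3, 25.3 for Id1, 17.0 for Smad4, 16.1 for Ski, 8.25 for Skil, 6.75 for Id2, 6.44 for Smad3, 5.23 for Smad2, 4.95 for Smad6 and 0.850 for Smad7. Counting intervals overlapped between the neighbours Smad4 and Ski, Id2 and Smad3, and Smad2 and Smad6. At 6 h the levels on that scale ran from 11.2 for Id1, 8.73 for Ski, 7.91 for Id3 and 6.54 for Smad4 to 3.12 for Id2, 2.91 for Skil, 2.89 for Smad2, 1.51 for Smad3, 1.44 for Smad6 and 0.695 for Smad7. Id1 thus stood highest at 6 h, its interval (9.64 to 12.9) lying above that of Ski (8.09 to 9.41). At 6 h the intervals overlapped between Ski and Id3, Id3 and Smad4, Id2 and Skil, Skil and Smad2, and Smad3 and Smad6.

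The half-life columns of the authors' deposited table gave every member a short half-life. The values were 1.46 h for Smad3, 1.56 h for Id1, 1.62 h for Id3, 1.81 h for Smad6, 1.89 h for Skil, 2.08 h for Id2, 2.48 h for Smad7, 2.69 h for Smad4, 3.22 h for Ski and 3.497 h for Smad2 in the authors' deposited table. Of 10836 tested genes with a value, 988 had one below 0, from a level that went up. Over the 9848 values above 0 the median was 7.43 h in the authors' deposited table, and all 10 members lay under it. Recomputation showed how the column was made: for 14957 of 14957 genes it equalled, within a relative 1e-06, the half-life from the log2 slope of a line through the untreated value over 0, 2 and 4 h of the authors' normalized values. The deposited R2 was that of the same line, taken about 0. The 6 h library does not enter the authors' half-life.

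For the straight courses the 6 h level lay above the line, though nearer to it than for Id1 and Smad7. Smad2 stood at 38.6% of untreated at 6 h in the authors' normalized values, where the half-life of the authors' deposited table gives 30.4%, and Smad4 at 27.0%, where it gives 21.3%. For Id1 the level was 30.9%, where the half-life of the authors' deposited table gives 6.96%, and for Smad7 57.1%, where it gives 18.6%. All 10 members were above the level their half-life gives.

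The half-life of bent courses depended on the times used. From the untreated and 2 h values alone, the authors' normalized values gave 0.928 h for Id1, 1.34 h for Skil and 1.42 h for Smad7, and a line over all 4 times gave 3.96, 3.09 and 8.60 h in the same order. For Smad4 the same 2 calculations gave 2.77 and 3.10 h, and for Smad2 3.46 and 4.28 h. The normalized values of Id1 and Smad7 were higher at 6 h than at 2 h, so no half-life could be given for that span, and those of Skil gave 7.53 h.

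**Figure D4:**
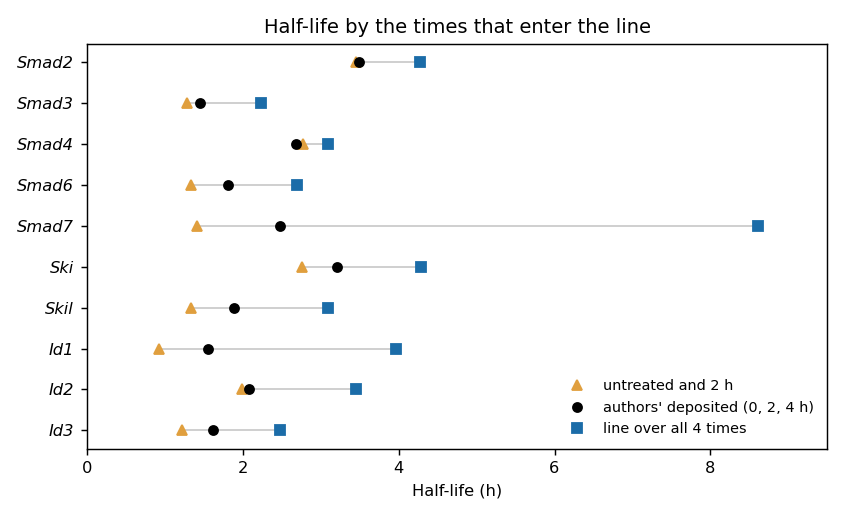
Half-life in h (horizontal axis) of each gene from the authors' normalized values: untreated and 2 h alone (triangles), the authors' deposited value over 0, 2 and 4 h (circles) and a line over all 4 times (squares). Smad4 keeps 2.69 to 3.10 h, while Id1 runs from 0.928 to 3.96 h and Smad7 from 1.42 to 8.60 h.

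Slopes with the authors' divisors were lower for every member than with TMM, and relative to TMM the divisors shifted the median gene by −0.53 log2 at 6 h. With them the 8 that fell, beside 45.8% of all tested genes, were all but Smad7 and Id1 (edgeR adjusted p = 0.331 and 0.154). With scaling on ribosomal protein mRNAs, the median gene moved by −0.35, and with total counts by 0.13.

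**Figure D5:**
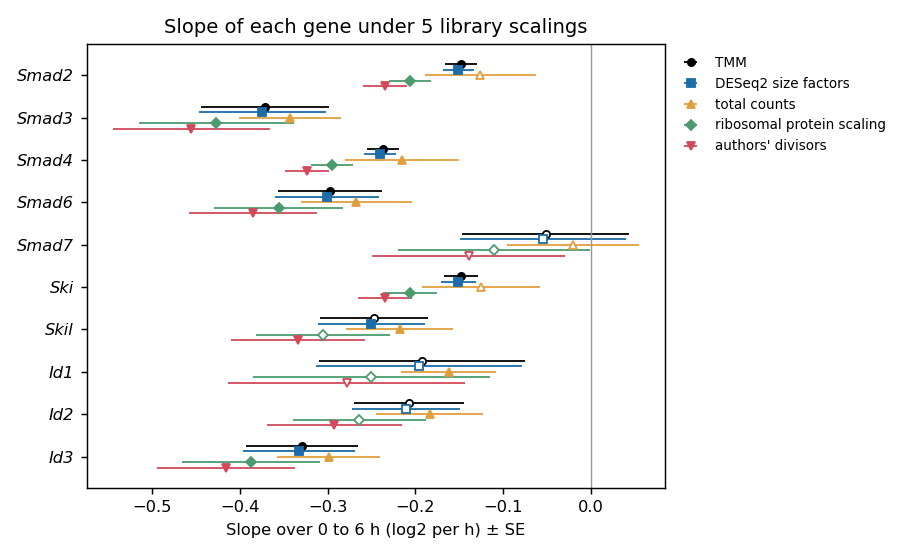
Slope over 0 to 6 h in log2 per h ± SE (horizontal axis) for each gene under 5 library scalings; filled symbols passed edgeR's test at an adjusted p under 0.05 and open symbols did not. All slopes lie below 0, and Smad7 (open throughout) lies nearest to it.

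The genes whose courses lay nearest to each member were sought among 7716 genes with a mean CPM of at least 10 that were no predicted models, clones or pseudogenes, by the Euclidean distance over the log2 changes at 2, 4 and 6 h. These 3 changes share the untreated library, and the distance is given as a description. Nearest to Smad7 were Ier2 (distance 0.0662), Tsc22d2 (0.158) and Jun (0.248), and these were the 3 genes within 0.25. Smad7 had 45 counts at 6 h, and its counting interval there (57.0 to 115% of untreated) was wider than this radius. Nearest to Id1 were Rpusd2 (0.162), Zfp36 (0.222) and Junb (0.227), with 4 genes within 0.25. By contrast 279 genes lay within 0.25 of Ski, 259 of Smad2 and 74 of Smad4. Smad3 (28 genes within 0.25, the nearest Akirin2 at 0.0628) and Id3 (32 genes, the nearest Zkscan1 at 0.0746) lay between these extremes.

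Of 77 other genes of the pathway, 76 were in the table and 45 passed the abundance filter. On the line 11 fell and 5 rose with TMM, beside 16.8% and 8.03% of all tested genes. The 5 rises numbered 0 with total counts, ribosomal protein scaling or the authors' divisors, and 0 without the 2 h or the 4 h library. Of the 11 falls, those of Sin3a and Crebbp passed without the 4 h library. On the bend 19 were upward and 3 downward, beside 18.0% and 10.6% of all tested genes. The median slope of the 45 was −0.053 log2 per h, between that of the 10 members (−0.22) and that of all tested genes (0.0014). Of 31 genes under the filter, 18 had no count in any library, 9 of them in the class of ligands and their processing.

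Ligands and receptors made up the first steps. The ligand gene Tgfb1, the most abundant of its class, had 7054, 10095, 19707 and 3403 counts and reached 120% of its start by 6 h without passing the line test (edgeR adjusted p = 0.0599). Of 10 receptor genes tested 4 fell, beside 16.8% of all tested genes. Tgfbr1 (slope −0.11, edgeR adjusted p = 0.0275) and Tgfbr2 (−0.16, 0.0300) are the signalling and ligand-binding TGF-beta receptors. Acvr1 (−0.18, 0.0417) and Acvr1b (−0.30, 0.0496) are type I receptors of the BMP and activin branches. Without the untreated library the slopes of Acvr1 and Acvr1b were −0.095 and −0.13 (edgeR adjusted p = 0.0861 and 0.0872), that of Tgfbr2 was −0.096, and Acvr1b also missed the test with ribosomal protein scaling (0.0584). With total counts Tgfbr1, Tgfbr2 and Acvr1 missed it (0.476, 0.224 and 0.0523). Acvr1b stood at 30.3% of untreated at 6 h, close to Smad6. The BMP type II receptor Bmpr2 rose with TMM (0.065, edgeR adjusted p = 0.0422), while the authors' divisors gave it −0.022. Acvrl1, a further type I receptor, bent upward (adjusted p = 0.0294) and missed the line test. Of the 10 receptor genes, 4 bent upward with TMM, beside 18.0% of all tested genes. Acvr1b, Tgfbr2 and Acvr1 were among them (edgeR adjusted p = 0.00125, 0.00174 and 0.00863), and the bend of Tgfbr1 missed the test (0.942).

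The BMP-branch Smads gave unlike values. Smad1 had 391, 347, 318 and 42 counts and fell (slope −0.34 ± 0.043, edgeR adjusted p = 0.0198), its 6 h level being 26.7% of untreated. Smad5 had 1981, 2819, 5080 and 704 counts and stood at 88.5% (adjusted p = 0.382), and it fell with the authors' divisors (0.0147) and with ribosomal protein scaling (0.0371). Smad9 had at most 1 count in any library. The difference between Smad1 and Smad5 was not tested.

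Among genes that turn pathway proteins over or inhibit it, 1 of 12 fell, beside 16.8% of all tested genes. It was the ubiquitin ligase Trim33 (slope −0.19, edgeR adjusted p = 0.0308, and 0.0626 with total counts), which also bent upward (bend adjusted p = 0.00515). Of the 12 genes, 4 bent upward and 2 downward with TMM, beside 18.0% and 10.6% of all tested genes. Rnf111 (Arkadia), the ligase that removes Ski, Skil and Smad7 proteins, stood at 39.1% at 6 h, missed the line test (adjusted p = 0.119) and bent upward (2.44e-05), as did the ligase Smurf1 (bend adjusted p = 0.0150). The deubiquitinase Usp9x bent downward (0.0100), and so did Fkbp1a (0.0299), which binds type I receptors. Fkbp1a and the ligase Wwp1 rose with TMM (slopes 0.074 and 0.090, both adjusted p = 0.0419), and with the authors' divisors Fkbp1a had a slope of −0.013.

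Of 11 tested Smad partners and corepressors 5 fell, beside 16.8% of all tested genes. Sin3a, a scaffold of the histone deacetylase complex that Ski recruits, had a 6 h level of 25.6% and a slope of −0.34 ± 0.030 (edgeR adjusted p = 0.0150). The acetyltransferases Ep300 and Crebbp, coactivators of Smads, fell to 38.4% and 34.7% (adjusted p = 0.0364 and 0.0162). The corepressor Tgif2 fell to 16.0% (adjusted p = 0.0487) and the transcription factor Runx1 to 31.9% (0.0496). Both missed the test with ribosomal protein scaling (edgeR adjusted p = 0.0595 and 0.0587). Without the untreated library the slope of Tgif2 was −0.18, against −0.48 with it (adjusted p = 0.0672), that of Runx1 was −0.10, against −0.28 with it, and that of Ep300 −0.14, against −0.24 with it. Tgif1 stood at 32.7%, missed the line test (adjusted p = 0.122) and bent upward (0.00443). Of the 11 genes, 7 bent upward with TMM, beside 18.0% of all tested genes. The 5 that fell were among them. Their bends had edgeR adjusted p = 0.0122 for Sin3a, 0.000203 for Ep300, 0.00837 for Crebbp, 0.000641 for Tgif2 and 8.68e-05 for Runx1.

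Ncor1, the most abundant of the class, was at 113% of its start at 6 h (edgeR adjusted p = 0.153). The deacetylase Hdac3 rose with TMM (slope 0.071, adjusted p = 0.0449; −0.016 with the authors' divisors), and Hdac1 bent downward (0.0429).

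The Id factors stood lower, relative to untreated, than the E proteins they bind. At 6 h Id1, Id2 and Id3 were at 44.3%, 46.2% and 25.6% of untreated, against 99.2% for Tcf3, 93.8% for Tcf4 and 126% for Tcf12, and the difference between the classes was not tested. Of the 3 E proteins, Tcf12 rose with TMM (slope 0.053, edgeR adjusted p = 0.0483), while the authors' divisors gave it −0.034. Of 5 other target genes tested, 4 bent upward, beside 18.0% of all tested genes. Klf10, an early TGF-beta target, had 1165, 351, 585 and 91 counts with a 6 h level 19.4% of its start (line adjusted p = 0.0675, bend 0.00329). The cell-cycle inhibitor Cdkn1a also bent upward (adjusted p = 0.00196), with a 6 h level of 62.3% of its start.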

How the data were processed

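Cytoplasmic RNA was depleted of rRNA and made into strand-marking libraries, per the labels' protocols. Raw counts per gene were used as the authors deposited them, as whole numbers per the file headers. The submitters' processing notes name mm10, STAR 2.5.3a, Subread 1.6.3 and featureCounts. The sources used here give neither the annotation release nor the strand setting. No annotated gene overlapped an exon of a member. The normalized signal columns of the deposited table are counts divided by 1 whole number per library, which the authors do not explain in the labels (1300, 2250, 4476 and 748). The half-life column of the deposited table and its R2 column were each taken as a score made by the authors. Columns not matched to a sample numbered 0.

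edgeR 4.0.16 in R 4.3.3 was fitted to all 10837 genes with a mean CPM of at least 1, with TMM factors from those genes, quasi-likelihood tests of a slope (2 residual degrees of freedom) and of a quadratic term (1), and Benjamini-Hochberg adjustment over all tested genes at 0.05. Changes from untreated used a prior count of 0.5. Intervals are exact binomial at 95%. Both tests were run on simulated data first, with a fixed dispersion and with slopes steeper than that of any member. That run does not show how the tests fare at the smaller slopes reported here. Alternatives were other scalings, filters, DESeq2 1.42.0 and leaving out each library. Pathway genes were named where they had a mean CPM of at least 5 and passed either test, or were the most abundant of their class, and the 3 nearest genes were taken for each member. Some pathway genes that met this rule are counted but not reported by name here. Members and lists were chosen with earlier results of these data known. Members on chromosome 18 are shown without sequence.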

Additional observations from a re-analysis of the deposited data

How the results depend on the processing

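No paired analysis was possible because each time had 1 library and the labels give no replicate numbers. Of 119 recomputed slopes of members, 94 kept their direction and side of the threshold, 15 newly passed, 8 newly missed and 2 turned; of 69 recomputed bends, 60 kept them, 6 newly missed and 3 turned. Of 120 recomputed percents of untreated, 79 left the counting interval. Leaving out 1 library at a time gave 1 to 8 falling and 0 to 1 rising members, and 2 to 16 falling and 0 to 3 rising pathway genes; the lowest counts of falls came without the 4 h library, where 233 of all genes fell and 12 rose. With total counts 3 members and 7 pathway genes bent upward and 13 pathway genes downward (all genes 668 and 4776). With the authors' divisors 24 pathway genes fell (all genes 4963), and with them or ribosomal protein scaling 0 pathway genes bent downward. Rising pathway genes numbered 3 with DESeq2 size factors, 0 with total counts, the divisors or ribosomal proteins, and 2 with no filter or with TMM factors from all genes, an alternative chosen after seeing the data. Rises among all genes numbered 205, 72, 124 and 1529 with total counts, divisors, ribosomal proteins and DESeq2's test, and 439 without the 2 h library. Falls were 67.6% of all calls with TMM, 72.8% with DESeq2 size factors, 86.5% with total counts, 95.3% with ribosomal proteins and 98.6% with the divisors. All genes bent upward numbered 3127 with the divisors and 3409 with ribosomal proteins, and downward 56 and 102, or 1801 with no filter. The causes were not tested.

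Leaving out 1 library at a time turned the slopes of Smad7 (−0.21 to 0.20), Id1 (−0.42 to 0.17), Acvrl1 (−0.16 to 0.021), Smurf1 (−0.18 to 0.0016), Rnf111 (−0.45 to 0.012), Usp9x (−0.0060 to 0.071) and Tgif1 (−0.44 to 0.061), in each case without the untreated library, and that of Smad5 (−0.041 to 0.010) without the 6 h library. Half-life slopes, taken relative to ribosomal proteins, turned without the untreated library for Smad7 (0.17) and Id1 (0.14), and the other 8 moved by more than their SE, the half-life of Skil being 9.31 h, against 3.301 h with that library, of Smad6 5.61 against 2.83 h and of Id3 5.29 against 2.60 h. With the divisors the 6 h slopes of Tgfb1 (−0.040), Bmpr2 (−0.022), Usp9x (−0.050), Fkbp1a (−0.013), Ncor1 (−0.060), Hdac1 (−0.036), Hdac3 (−0.016) and Tcf12 (−0.034) turned. With ribosomal proteins Tgfb1 (−0.011), Usp9x (−0.021), Ncor1 (−0.031), Hdac1 (−0.0067) and Tcf12 (−0.0050) turned. Bends that turned with total counts were those of Smad2 (−0.030), Smad4 (−0.031) and Ski (−0.019). Among the 10 members, depth limits Smad7 most, with 45 counts at 6 h.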
